A study of Homo sapiens with 6 samples.

Results

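Wide peaks of RNA polymerase II (Pol II) that did not belong to a dense run of peaks were examined in LNCaP, a human prostate cancer line that responds to androgen. The peaks were selected on measured values of a single library. A peak was taken when its width in the DMSO Pol II list, the stop minus the start on hg19, exceeded 1000 bp. A peak was left out when it lay in a run of 10 or more listed DMSO Pol II peaks with no gap above 10 kb. The rule found 1588 peaks, or 5.51% of the 28798 listed, and 71.8% of the 2213 listed peaks wider than 1000 bp. They covered 2.19 Mb, or 13.0% of the 16.8 Mb under DMSO Pol II peaks. The other 625 wide peaks lay in the 260 runs, and 22085 peaks of at most 1000 bp, called narrower below, lay outside runs.

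The series compared cells given DMSO for 6 h with cells given 1 µM BMH-21 for 6 h, a DNA intercalator that inhibits RNA polymerase I (Pol I). All cells were grown in the same serum-containing medium, and nothing but the agent separated the groups in the labels. Chromatin was immunoprecipitated with an antibody to Pol I or with the 4H8 antibody, described as directed at the Pol II C-terminal repeat phosphorylated at serine 5, and sequenced. Each antibody and treatment had 1 library, so no difference here has a replicate error or a test, and 2 input libraries were not analysed here. The intervals given are exact Clopper-Pearson 95% intervals over peaks, which cover counting error only. Peaks that lie close together share a source and are not independent, so that these intervals are too narrow as a measure of reproducibility. Read depth is unknown because the lists hold positions and a score but no reads.

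Pol II transcribes protein-coding genes and many noncoding RNAs. Its C-terminal repeats are phosphorylated at serine 5 as transcription starts, so this form is typically concentrated near gene starts, where the enzyme often pauses before it elongates. Pol I transcribes the ribosomal RNA precursor in the nucleolus. No genome or gene annotation of hg19 was used, so regions are given by position and the genes beneath them are not named.

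Each list leaves out part of its own running numbers. The share of numbers absent was 48.1% for Pol II in DMSO, 77.0% for Pol II after BMH-21, 23.3% for Pol I in DMSO and 87.7% for Pol I after BMH-21. A region without a listed peak is therefore not shown to lack the polymerase, and "outside a run" refers to listed peaks. Within a chain, meaning listed DMSO Pol II peaks joined by gaps of at most 10 kb, skipped peaks must lie between the listed ones. For 139 of the wide peaks (8.75%), the chain spanned 10 or more running numbers, so these would have counted as lying in a run if the skipped peaks had been listed. Skipped peaks beyond the ends of a chain could lengthen or join chains and were not counted, so 139 is a minimum.

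Most wide peaks were only moderately wider than the threshold. Their median width was 1240 bp, with 74.9% at or below 1500 bp. Beyond that, 398 were wider than 1500 bp, 120 wider than 2000 bp and 17 wider than 3000 bp. The authors' score, a transformed p-value of unstated scale, ran from 50.34 to 1651.99 with a median of 287.56. The median was 77.26 for narrower peaks outside runs and 223.27 for wide peaks in runs. Width chose these peaks and moved with score, with a Spearman rho of 0.48 across the 1588 peaks of this single library, so neither value is a finding. By the same token most of the top-scored peaks fell here: 88 of the 100 highest-scored DMSO Pol II peaks were wide peaks outside runs, 10 were wide peaks in runs and 2 were narrower peaks outside runs. Of the 16 listed peaks with a score of 1000 or more, 15 were in the set.

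**Figure D1:**
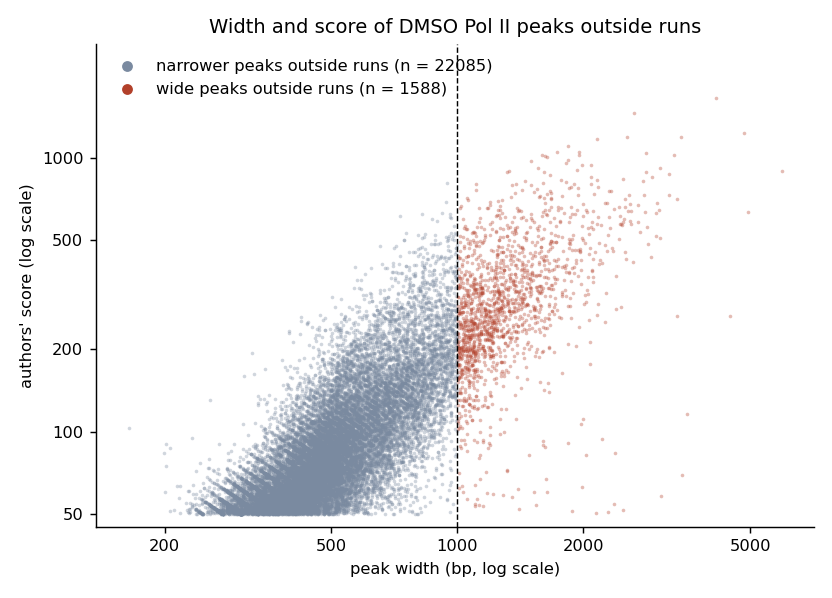
Each point is 1 listed DMSO Pol II peak outside runs, with its width in bp (x, log scale) and the authors' score (y, log scale). The dashed line marks 1000 bp. The 1588 wide peaks (red) rise with width to 1651.99, and 60 of them stay below a score of 100.

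The threshold cut through a continuous distribution. Just inside it, the 5 highest-scored peaks of 1001 bp were chr15:65133375-65134375 (score 344.05), chr8:30515043-30516043 (311.51), chr1:44411971-44412971 (266.05), chr17:46002288-46003288 (205.82) and chr14:73593260-73594260 (182.97). Just outside, at 1000 bp, were chr10:12110421-12111420 (359.69), chr16:85548146-85549145 (261.16), chr17:74260690-74261689 (249.86), chr11:130731387-130732386 (224.35) and chr19:58008612-58009611 (207.35). Ties in width were ordered by score, and the scores of the 5 just inside and the 5 just outside overlapped. A listed DMSO Pol I peak overlapped 2 of the first 5 and 3 of the second 5.

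The widest peak of the set was 5950 bp long and lay at chr5:107499023-107504972, with a score of 895.28. It was alone, 18.2 kb after the preceding and 12.0 kb before the following listed DMSO Pol II peak. The peak at chr6:58775256-58780200 was 4945 bp wide (score 635.75) and stood 544 kb from the nearest listed Pol II peak, with a stretch of 3133 kb free of listed peaks after it. Gaps in the hg19 sequence were not identified here, so part of that stretch may be unassembled. Next came chr19:23510022-23514845 at 4824 bp (1231.6) and chr17:44252901-44257378 at 4478 bp (265.36). The fifth, chr14:24573509-24577643, was 4135 bp wide and had the highest score of the whole list, 1651.99. It began 74 bp after another wide peak of its chain. The peaks ranked 6 to 10 by width were chr1:120592416-120595952 (3537 bp), chr20:29635536-29638972 (3437 bp), chr5:172749665-172753091 (3427 bp), chr2:133028086-133031438 (3353 bp) and chr21:22644208-22647557 (3350 bp). Their scores spanned a wide range, from 69.33 on chromosome 20 and 116.18 on chromosome 1 to 1189.38 on chromosome 5. Among these 10, a listed DMSO Pol I peak overlapped that on chromosome 2 and no other, and a BMH-21 Pol II peak lay within 1 kb of that on chromosome 1 and no other.

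Listed DMSO Pol I peaks overlapped 30.2% of all wide peaks and 20.5% of all listed DMSO Pol II peaks. They overlapped 1 of the 10 widest and 5 of the 10 highest-scored wide peaks, and some peaks are in both groups. After the chromosome 14 peak, the order was chr12:57632585-57635230 (1455.38), chr19:23510022-23514845 (1231.6), chr5:172749665-172753091 (1189.38), chr1:43831753-43834292 (1188.58) and chr19:54693934-54696090 (1172.81). Then came chr8:22461772-22463608 (1104.14), chr16:84149840-84151795 (1051.35), chr12:1702661-1704387 (1044.72) and chr17:79988329-79991153 (1037.48). DMSO Pol I peaks overlapped those on chromosomes 1, 16 and 17, the second one on chromosome 19 and the second one on chromosome 12. The last of these, at chr12:1702661-1704387, held 2 Pol I peaks and stood 66.6 kb from the nearest listed Pol II peak. Within 1 kb of these 10 the BMH-21 Pol II list had 0 peaks. The share with 1 or more was 8.38% over all wide peaks, so 10 peaks are too few to show a lower one.

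Most wide peaks had other listed peaks near them. Of the 1588, 510 (32.1%) were alone, with no listed DMSO Pol II peak within 10 kb. The share alone was 46.8% for narrower peaks outside runs and 37.7% over all listed DMSO Pol II peaks. Peaks in runs are never alone, and the rule capped the chain size, so this spacing is partly set by the selection. The other 1078 wide peaks sat in chains of 2 to 9 peaks. The median gap to the nearest listed peak was 2170.5 bp for wide and 7879 bp for narrower peaks. It was 326 bp for wide peaks in runs and 3474 bp over all listed peaks. In 483 cases (30.4%) a neighbour lay closer than 500 bp, and in 211 (13.3%) closer than 100 bp, against 18.2% and 6.85% of narrower peaks. These 483 wide peaks had 536 such neighbours, with a median width of 556 bp and a median score of 90.17, and 76 of the neighbours were themselves wide peaks of the set. The lower widths and scores of these neighbours follow in part from the selection on width, since score moved with width.

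The wide peaks fell into 1400 chains, single peaks included. In 155 chains there were 2 or more wide peaks, 343 in all, in 29 there were 3 or more, and in 4 there were 4. These 4, picked out after their values were seen, were at chr17:44252901-44267856, chr8:26151548-26189206, chr12:57632585-57649754 and chr12:53413531-53428436. In the chromosome 17 chain, 5 peaks covered 64.0% of 15.0 kb, and its top score was 265.36. The first chromosome 12 chain held 6 listed peaks of 11 running numbers over 17.2 kb with a top score of 1455.38, and no listed Pol I or BMH-21 Pol II peak lay between its ends. The chain around the highest-scored peak, chr14:24565456-24579774, had 8 peaks, 3 of them wide, that covered 78.7% of 14.3 kb. Its running numbers were complete, and it too held no listed Pol I or BMH-21 Pol II peak. By contrast, the chromosome 8 chain spanned 19 running numbers with 9 listed peaks. It held 5 BMH-21 Pol II peaks, and 2 from the DMSO Pol I list. Lacking Pol I was common, since Pol I overlapped a peak in only 309 of 890 chains of 2 to 9 with a wide peak. Its absence therefore does not set the chromosome 12 and 14 chains apart. No matching count is given for BMH-21 Pol II.

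At the other extreme, 79 wide peaks were more than 100 kb from any other listed DMSO Pol II peak. The farthest 5 were chr11:51572452-51573599 (2118 kb away, score 53.64), chr1:249146590-249148503 (1303 kb, 461.86), chr4:155455743-155456947 (806 kb, 224.75), chr6:58775256-58780200 (544 kb, 635.75) and chr4:16227970-16229069 (535 kb, 309.65). Only the last of these 5 was overlapped by a listed DMSO Pol I peak. Distances rest on listed peaks, and gaps in the hg19 sequence within them were not identified. Of the 510 peaks that were alone, 85 had both adjacent running numbers listed, so that no unlisted DMSO Pol II peak lay between them and their listed neighbours.

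Wide peaks outside runs were present on all 24 chromosomes. They were densest on chromosome 19, at 2.03 per Mb between the first and last listed peak, followed by chromosome 17 at 1.41 per Mb, and sparsest on chromosomes X (0.135) and Y (0.0676). As a share of the listed DMSO Pol II peaks of a chromosome, they made up a median of 5.38%. Chromosome 13 had the lowest share, 2.95% (interval 1.73 to 4.68), and chromosome 21 the highest, 8.21% (interval 5.68 to 11.4). Chromosome 10 had 49 of 1500 (3.27%, interval 2.43 to 4.3) and chromosome 2 had 67 of 1811 (3.7%, interval 2.88 to 4.67). Chromosomes 11 (7.41%, interval 6.09 to 8.92), 17 (7.25%, interval 6.02 to 8.64), 12 (7.11%, interval 5.8 to 8.6) and 19 (6.96%, interval 5.8 to 8.26) stood above these, with intervals that did not overlap them. Runs took a share of each chromosome's peaks. Counted over peaks outside runs only, the share was 4.99% on chromosome 10, 4.48% on chromosome 2, 8.86% on chromosome 17 and 9.33% on chromosome 21.

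The widest peak of a chromosome ranged from 1377 bp on chromosome Y (chrY:13316286-13317662, score 111.29) to 5950 bp on chromosome 5, with a median of 2830 bp. Chromosomes 3 and 4 had their widest peaks at chr3:75773778-75776262 (2485 bp) and chr4:190474207-190476573 (2367 bp), whose scores of 51.75 and 54.32 were close to the lowest score listed, 50. Both of these regions recur among the weakly scored peaks described last. On most chromosomes the widest peak was strongly scored, as at chr12:112457151-112459957 (2807 bp, 631.34), chrX:66795313-66797823 (2511 bp, 659.84), chr22:24098562-24101004 (2443 bp, 611.82) and chr10:25894575-25897150 (2576 bp, 589.96).

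**Figure D2:**
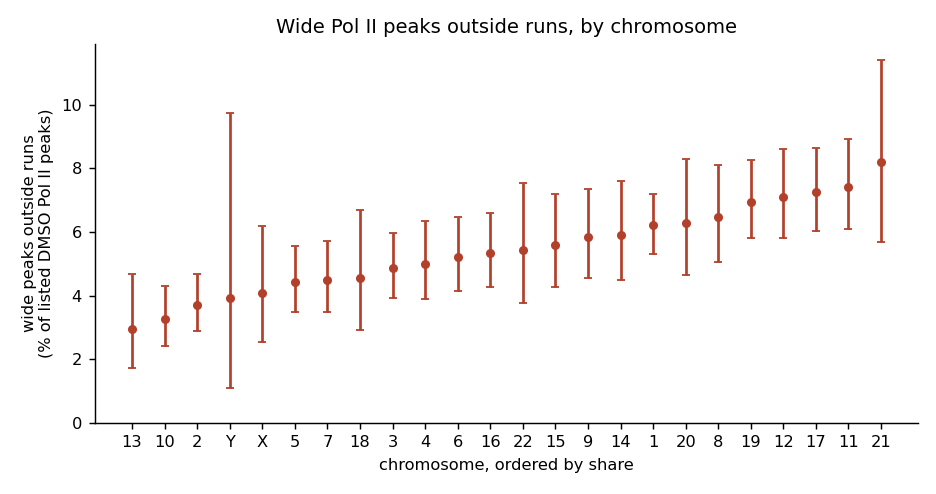
Points give wide Pol II peaks outside runs as a percentage of the listed DMSO Pol II peaks of each chromosome (y), with exact 95% intervals as bars, ordered by share (x). The share goes from 2.95% on chromosome 13 to 8.21% on chromosome 21.

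The DMSO Pol I library, which the selection did not use, had a listed peak at 480 of the 1588 wide peaks (30.2%, interval 28.0 to 32.6). Over all listed DMSO Pol II peaks the share was 20.5%. It was 23.6% (interval 23.1 to 24.2) for narrower peaks outside runs and 10.4% (interval 8.12 to 13.1) for wide peaks in runs. Since a wider peak can meet more Pol I peaks by its length alone, shares were also taken by width. Outside runs the share was 10.4% of 1014 peaks up to 300 bp wide and 17.1% of 4835 peaks of 301 to 400 bp. Between 401 and 1000 bp it was 27.0% (401 to 500 bp), 25.7% (501 to 600 bp), 24.7% (601 to 800 bp) and 29.8% (801 to 1000 bp). Above the threshold it was 32.2% (1001 to 1200 bp), 28.7% (1201 to 1500 bp), 33.5% (1501 to 2000 bp) and then 17.5% (interval 11.2 to 25.5) for the 120 peaks above 2000 bp. The share was thus lowest among the narrowest peaks, which lower the 23.6% of the narrower group, lay between 24.7% and 33.5% from 401 to 2000 bp, and was lower again in the widest class. Peaks above 2000 bp also stood alone less often, in 27 of 120 cases (22.5%). Their median score, 558.38, was the highest of the width classes outside runs, though 9 of them had scores below 100.

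At the 480 overlapped wide peaks there were 528 Pol I peaks, or 1.24% of the 42547 in that list. In 433 cases there was 1 Pol I peak, in 46 there were 2 and in 1 there were more. The centre fell in the middle 50% of the Pol II peak in 360 cases (68.2%), in the outer 50% in 148 and outside it in 20. The Pol I peaks covered a median of 43.6% of a wide peak and 87.5% of a narrower one, a contrast that the selection on width gives by itself. Their own median width, 516 bp, and score, 111.2, were close to those of the Pol I peaks at narrower Pol II peaks (504 bp and 121.28) and above those of the whole Pol I list (464 bp and 98.3). The Pol I peaks at wide and at narrower Pol II peaks thus had similar median widths.

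The 5 widest peaks with Pol I were as follows, and their size was set by the selection. At chr2:133028086-133031438 (3353 bp) the Pol I peak was 234 bp wide with a score of 257.75. The Pol I peak was 361 bp wide in the 2984 bp of chr1:41509599-41512582, 265 bp wide in the 2825 bp of chr17:79988329-79991153 and 314 bp wide in the 2770 bp of chr19:18269908-18272677. At chr11:118473401-118476093 (2693 bp) it was 517 bp wide, and 465 bp of it overlapped.

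Pol I overlap rose with the Pol II score within the set. It was 20.4% (interval 16.1 to 25.3) in the lowest of 5 equal groups by score, 20.2%, 25.2% and 37.5% in the next 3, and 47.8% (interval 42.2 to 53.4) in the highest. The median score was 343.02 for the 480 wide peaks with Pol I and 268.85 for the 1108 without, while their median widths were close, at 1222 and 1244 bp.

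Set beside narrower peaks of like score, the wide peaks had less Pol I overlap, not more. In each of 8 score classes the share was lower among wide peaks. At scores from 200 to under 250 it was 20.1% of 264 wide peaks (interval 15.4 to 25.4) against 43.7% of 622 narrower ones (interval 39.8 to 47.7). From 250 to under 300 it was 22.8% of 250 against 48.6% of 311, and from 300 to under 400 it was 35.4% of 322 against 51.5% of 196. The intervals were apart in the 4 classes from 150 to under 400 and overlapped in the other 4. In the highest class there were only 8 narrower peaks. In the class from 400 to under 600, whose intervals overlapped, the share was 40.7% of 268 (interval 34.7 to 46.8) against 57.6% of 85 (interval 46.4 to 68.3). When narrower peaks were weighted to the score classes of the wide ones, their share was 48.0% against 30.2%, so the difference of 6.61 percentage points in favour of wide peaks became -17.8. That value has no error and leans on classes with few narrower peaks, such as the 8 that stand for 143 wide peaks in the highest class. The score comes from the same library as the width, so this is a description of these lists.

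**Figure D3:**
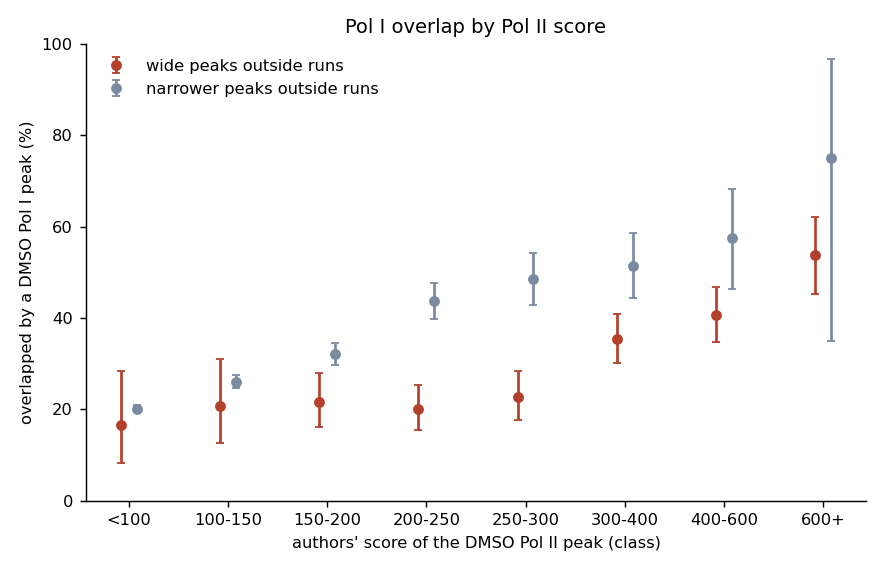
Points give the percentage of DMSO Pol II peaks outside runs that a DMSO Pol I peak overlaps (y), by class of Pol II score (x), for wide (red) and narrower peaks (grey), with exact 95% intervals. Wide peaks lie lower in all 8 classes, by 20.1% against 43.7% at scores from 200 to under 250.

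The share also went with the number of listed Pol II peaks nearby. Of the 510 wide peaks that were alone, 48.6% (interval 44.2 to 53.1) had a Pol I peak. The share was 28.2% for those in chains of 2 to 3 peaks, 19.4% in chains of 4 to 6 and 11.8% (interval 7.83 to 16.8) in chains of 7 to 9, close to the 10.4% of wide peaks in runs. Narrower peaks followed the same order at lower levels, with 36.5%, 18.6%, 6.49% and 4.33%. At equal chain size wide peaks had the higher share in all 9 sizes, and weighting narrower peaks to these sizes gave a difference of 11.0 points. With weighting by both score and chain size, over the 1495 wide peaks that had narrower counterparts, the difference was -11.8 points (30.1% against 41.9%). These weighted differences have no error, and the joint classes hold fewer peaks than those by score alone. A close neighbour went with a low share: a Pol I peak overlapped 62 of the 483 wide peaks with a listed Pol II neighbour closer than 500 bp (12.8%), and 418 of the 1105 others (37.8%). For narrower peaks these shares were 8.97% and 26.9%. The close neighbours themselves rarely had Pol I, in 30 of 536 cases (5.6%). Of the 890 chains of 2 to 9 peaks with a wide peak, 309 held a peak with Pol I, and in 223 of them it was at a wide one.

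By chromosome, the share of wide peaks with Pol I was lowest on chromosome 21, at 15.6% (5 of 32), and highest on chromosome 10, at 38.8% (19 of 49). It was 28.9% on chromosome 1 and 30.0% on chromosome 19. The lowest and highest shares are extremes picked from 24 chromosomes, rest on few peaks and were given no interval. Neither chromosome is thereby shown to differ from the 30.2% of the whole set.

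After BMH-21, 0 of the 1588 wide peaks were overlapped by a listed Pol II peak, and 0.0% of all listed DMSO Pol II peaks were. This count is fixed by the deposited lists, which share no position between the 2 treatments for this antibody, so it sets no limit on the share of peaks kept or lost. The running numbers bear on part of the set. Where the nearest listed peaks of that library on both sides of a wide peak had consecutive numbers, no BMH-21 Pol II peak, listed or skipped, lay between them. This held for 117 of the 1583 wide peaks flanked on both sides (7.39%, interval 6.15 to 8.79), against 8.59% of narrower peaks outside runs and 9.48% of all listed DMSO Pol II peaks. At the other wide peaks 1 or more BMH-21 numbers were missing in the flanking stretch, with a median of 7 over the 1583, and a BMH-21 peak could lie there unlisted.

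Listed BMH-21 Pol II peaks were found beside some of the wide peaks. Within 1 kb lay 1 or more for 133 of them (8.38%, interval 7.06 to 9.85), near the 8.74% over all listed DMSO Pol II peaks. The share was 7.28% for narrower peaks outside runs (interval 6.94 to 7.63) and 13.0% for wide peaks in runs (interval 10.4 to 15.8). Within 5 kb it was 24.1%, against 25.3% of all listed peaks, and within 10 kb 34.8%, against 36.1%. Peaks in runs raise the share of the whole list. Among narrower peaks outside runs it was 20.2% within 5 kb (interval 19.7 to 20.7), against an interval of 22.0 to 26.2 for wide peaks, and 28.7% within 10 kb (interval 28.1 to 29.3), against 32.4 to 37.2. Wide peaks were alone less often (32.1% against 46.8%), and the shares within 5 and 10 kb were not weighted by chain size. Of the neighbours within 1 kb, the median width was 272 bp and the median score 58.61 over 140 peaks, close to the medians of their list (269 bp and 60.44), and the highest score among them was 131.13. The median gap was 414 bp, the smallest 3 bp, and 5 wide peaks had such a neighbour on both sides.

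The 5 widest peaks with such a neighbour were spread over 4 chromosomes. At chr1:120592416-120595952 (3537 bp) a BMH-21 peak of 587 bp ended 381 bp before the start. At chr21:17606112-17609012 (2901 bp) a peak of 406 bp lay 984 bp before it. A peak of 271 bp followed chr16:1660171-1662653 (2483 bp, overlapped by a 928 bp Pol I peak) after 211 bp. One of 349 bp followed chr11:47257790-47260254 (2465 bp) after 321 bp, and one of 210 bp preceded chr16:87724793-87727225 (2433 bp) by 60 bp. The scores of these 5 BMH-21 peaks, on the scale of their own list, ran from 55.51 to 86.89.

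The presence of a BMH-21 neighbour went opposite to Pol I with chain size. It was 4.71% (interval 3.04 to 6.92) for wide peaks that were alone, 7.05% in chains of 2 to 3, 11.9% in chains of 4 to 6 and 13.1% (interval 8.97 to 18.3) in chains of 7 to 9. Narrower peaks gave 3.3%, 8.64%, 12.7% and 13.7% in the same order. At equal chain size wide peaks had the higher share in 3 of 9 sizes, and the difference between wide and narrower peaks was 1.09 points unweighted, -0.316 after weighting by chain size, 3.79 by score and 3.15 by both. By score the 5 equal groups of wide peaks had 10.7% (lowest), 8.83%, 9.75%, 7.57% and 5.03% (highest). The intervals of the lowest (7.52 to 14.6) and the highest (2.9 to 8.04) overlapped.

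**Figure D4:**
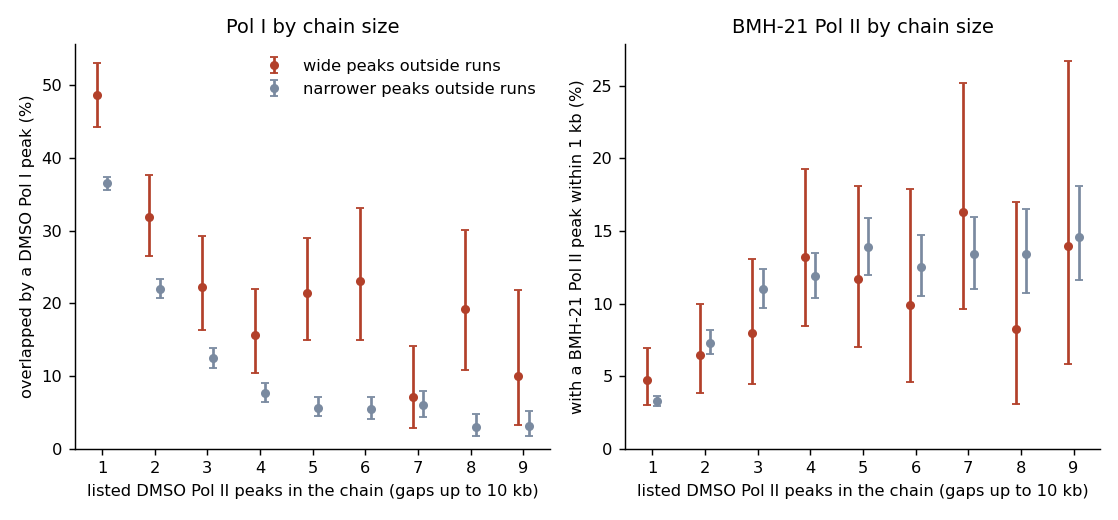
Points give the percentage of peaks that meet a DMSO Pol I peak (left) and those with a BMH-21 Pol II peak within 1 kb (right), by number of listed peaks in the chain (x), for wide (red) and narrower peaks (grey), with exact 95% intervals. For wide peaks the left share goes from 48.6% alone to 10.0% in chains of 9, and the right from 4.71% to 14.0%.

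At the centre of wide peaks, listed Pol I peaks covered 19.3% of positions, and at 1 kb to either side 2.49%. For narrower peaks outside runs the values were 21.9% and 2.37%, and for wide peaks in runs 5.76% and 0.96%. At the central base, wide peaks were thus under a Pol I peak slightly less often than narrower ones. DMSO Pol II peaks covered 19.2% of positions 1 kb from the centre of a wide peak, 11.8% at 2 kb and 3.15% at 10 kb, against 7.93%, 5.5% and 2.28% around narrower peaks. The value at 1 kb includes the wide peaks themselves where they exceed 2000 bp.

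**Figure D5:**
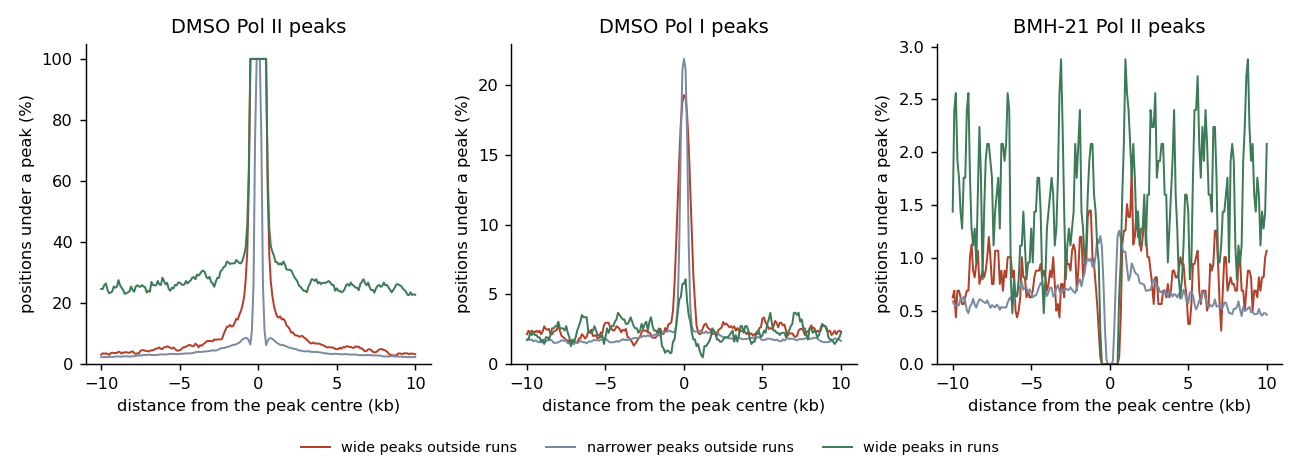
Lines give the percentage of positions under a listed DMSO Pol II (left), DMSO Pol I (middle) or BMH-21 Pol II peak (right) at each distance from the centre of the DMSO Pol II peaks (x, kb), for wide peaks outside runs (red), narrower peaks outside runs (grey) and wide peaks in runs (green). Pol I reaches 19.3%, 21.9% and 5.76% at the centre, and BMH-21 Pol II is at 0 there because the 2 lists share no position.

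Listed BMH-21 Pol I peaks overlapped 5 of the wide peaks (0.315%, interval 0.102 to 0.733), against 0.24% of all listed DMSO Pol II peaks, and lay within 1 kb of 11 (0.693%), against 0.576%. The 5 lay at chr1:160182099-160183558, chr16:907983-909400, chr5:140891598-140892899, chr1:55680345-55681584 and chr19:35232598-35233689. The BMH-21 Pol I peaks there were 153 to 304 bp wide with scores from 54.18 to 165.43. At chr1:55680345-55681584, which stood alone, a DMSO Pol I peak of 851 bp and a BMH-21 Pol I peak of 197 bp both overlapped the 1240 bp Pol II peak, the second by 170 bp. At chr1:160182099-160183558 and chr5:140891598-140892899, a BMH-21 Pol II peak lay within 1 kb as well.

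A small part of the set combined great width with a low score. In all, 60 wide peaks on 17 chromosomes had scores below 100, and their median width was 1194 bp. Of these, 8 (13.3%, interval 5.94 to 24.6) lay within 1 Mb of the longest stretch free of listed peaks on their chromosome, against 1.44% (interval 0.904 to 2.17) of the 1528 other wide peaks. The share was 1.47% of narrower peaks outside runs both below and above that score. Many of the 60 lay close together, so the 8 are not independent and their interval is too narrow. How many separate loci the 8 came from was not counted. Pol I overlapped 10 of the 60 (16.7%) and 470 of the 1528 (30.8%). The lowest scores were 50.34 at chr21:9940551-9942697 (2147 bp), 50.84 at chr1:142861324-142863616 (2293 bp), 51.31 at chr21:9946969-9948846 (1878 bp) and 51.75 at chr3:75773778-75776262 (2485 bp).

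Many of these weakly scored wide peaks lay near one another. When the genome was divided into bins of 1 Mb, 36 of the 60 shared a bin with another of them. The same share was not computed for other peaks, so this grouping is not shown to be particular to weakly scored ones. The largest groups, picked after their values were seen, had 5 at chr1:145219202-145270702 (scores 52.31 to 92.85), 4 at chr15:21901964-21941890 (53.45 to 88.06), 4 at chr17:44234687-44267856 (58.69 to 90.84) and 3 at chr21:9652588-9948846 (50.34 to 93.94). Another 3 lay at chr1:120549766-120588379 and 3 at chr3:175098596-175132647. The chromosome 17 group belongs to the same stretch as the 4478 bp peak named above, and that on chromosome 1 near position 120549766 precedes the 3537 bp peak there. How the authors treated reads with more than 1 match is not given in the sources used here, and its part in these peaks was not tested. Without the 60, the share with Pol I was 30.8% and that with a BMH-21 Pol II neighbour within 1 kb 8.25%.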

How the data were processed

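The series has 6 samples in 6 groups of 1, taken from the sample titles. The deposited files were 4 peak lists of the authors, giving position, a numbered name and a score for each peak. The score column is headed p-value, per the file headers, but no value is below 50, so it must be a transformed one. Its scale is unstated, and the score is used within a list only. The submitters' processing notes name hg19, deepTools 3.5.4, Bowtie2 2.2.1 and CASAVA 1.8.2, and deposited peak names carry the prefix MACS. Peak calling settings, the use of inputs and how listed peaks were selected: not given in the sources used here.

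Starts were raised by 1 for printing. Overlap meant 1 bp or more. Peak-free stretches and chains were computed from listed peaks, without regard to gaps in the hg19 sequence. The code was compared with direct counting on 800 simulated peaks, with 0 mismatches. The wide peaks, the comparisons and the strata were chosen with earlier results of these data known. Named regions are the 10 widest, the 10 highest-scored, the widest per chromosome, those next to the threshold, the 5 widest with a Pol I or BMH-21 Pol II neighbour, those with BMH-21 Pol I and the 5 farthest from another peak. Of the widest per chromosome, a selection is printed. The only gene table was on another build, GRCh38, so planned counts at genes, gene lists and sequence content were not computed. Python 3.11.15, NumPy 2.4.6, pandas 2.3.3, SciPy 1.17.1 and matplotlib 3.10.9 were used.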

Additional observations from a re-analysis of the deposited data

How the results depend on the processing

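Of 40 alternative values, 25 stayed within 1.5 times the main count or difference, or inside the main share's interval, 12 did not and 3 changed sign. The number of wide peaks was 3126 above 800 bp and 398 above 1500 bp, by construction. The share with Pol I was 35.5% when runs needed 5 peaks, 27.7% when they needed 20, and 35.8% within 1 kb. The share with a BMH-21 Pol II peak nearby was 6.9% with runs of 5, 10.3% above 1500 bp, 24.1% within 5 kb and 4.97% within 500 bp. The difference between wide and narrower peaks in Pol I overlap was 11.0 points after weighting by chain size, -17.8 by score and -11.8 by both. For BMH-21 Pol II neighbours it was -0.316 by chain size, 3.79 by score and 3.15 by both. For the shares and differences the cause was not tested. Weighting, skipped numbers counted in runs and leaving out scores below 100 were chosen after seeing the data. Counting the numbers skipped within chains left 1449 wide peaks, 32.0% with Pol I. Alternatives for gene starts and GC content were not run, as no hg19 annotation or genome was used. No paired analysis was possible because each group has 1 library. Depth is unknown.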

Other observations

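Wide peaks outside runs lay slightly more often near a DMSO Pol II run than narrower peaks did, with 101 (6.36%) against 4.2% within 50 kb and 153 (9.63%) against 6.87% within 100 kb. No peak of the set is within 10 kb of a run by definition. Runs defined the same way in the BMH-21 Pol II list numbered 54. Of the 1588 wide peaks, 26 lay within 50 kb of such a run, 4 of them inside its span. Matching counts were not made for other listed DMSO Pol II peaks, so neither number is shown to be high or low. These 4 were chr5:107662475-107663902 (1428 bp, score 232.46), chr8:81425084-81426249 (1166 bp, 133.78), chr4:49201855-49202968 (1114 bp, score 57) and chr14:19677011-19678044 (1034 bp, 60.38). Each had a BMH-21 Pol II peak within 1 kb, which the choice of peaks inside such runs favours. None of the 4 was overlapped by a listed DMSO Pol I peak. That share was 30.2% over all wide peaks and 20.5% over all listed DMSO Pol II peaks, so 4 peaks are too few to show a lack. The 4 were chosen after their values were seen.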
